A study of Homo sapiens with 36 samples.

Results

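The transcripts described here belong to 6 human genes of the integrated stress response: ATF4, ATF5, DDIT3, PPP1R15A, PPP1R15B and TRIB3. They were taken by identifier, under a rule that reads no measured value, as 9 of the 223367 transcripts in the deposited table. They are ENST00000396680, ENST00000337304 and ENST00000404241 of ATF4, ENST00000423777 of ATF5, ENST00000346473 and ENST00000547303 of DDIT3, ENST00000200453 of PPP1R15A, ENST00000367188 of PPP1R15B and ENST00000217233 of TRIB3. The gene names came with that list of identifiers, since the table itself holds identifiers only. All 9 were among the 51052 transcripts that reached 1 TPM in at least 3 libraries and were tested. TPM is an abundance per unit of transcript length, scaled so that every library has the same total, so levels of different genes can be set side by side.

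The cells were HUES6, an established line of human embryonic stem cells grown in FTDA medium, and were either unmodified (WT) or knocked out for the RNA-binding protein RBPMS (KO). All cultures, WT and KO alike, were labelled as control in treatment and received cycloheximide at 100 ng/ml for 5 min, which holds ribosomes on mRNA, and no label names a stressor. Polysome profiling then separated lysates by the number of ribosomes on each mRNA into 40S (small subunit), 80S (a lone ribosome), disome, Polysome1 and Polysome2, and an unfractionated Input was kept. Each of the 12 groups, 2 genotypes by 6 samples, had 3 libraries, and the 36 libraries came from 6 cultures. The sources used here do not say whether the KO cultures were 1 clone or several, and neither the loss of RBPMS nor the pluripotency markers were checked, because no table used here pairs other names with the identifiers.

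When stress kinases phosphorylate the initiation factor eIF2, most translation slows, but a small group of mRNAs is translated better. Their leaders carry short upstream open reading frames (uORFs) that capture ribosomes in resting cells and let more of them reach the main coding sequence when initiation is slow. ATF4 is the best known of these mRNAs and encodes the transcription factor that drives the response. ATF5 and DDIT3 (CHOP) encode related transcription factors. PPP1R15A (GADD34) and PPP1R15B (CReP) encode the inducible and the constitutive subunit that bring a phosphatase to eIF2 and end the response. TRIB3 encodes a pseudokinase that is a transcriptional target of ATF4 and CHOP and restrains them.

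The promoters of the phosphatase subunit genes are shown because these paralogs had different profiles across the gradient. Whether promoter motifs relate to those profiles was not tested. Each is the stretch of 250 bases that ends just before the start site in RefSeq (GRCh38.p14). All 6 of the genes were found by symbol in that table. PPP1R15A lies on the plus strand and its stretch is chr19:48872171-48872420. PPP1R15B lies on the minus strand and its stretch is chr1:204411818-204412067. Capitals mark TGACGTCA, the palindromic cyclic AMP response element, in the first, and TGATGCAA, a match to the C/EBP-ATF core TGATGNAA, in the second.
PPP1R15A: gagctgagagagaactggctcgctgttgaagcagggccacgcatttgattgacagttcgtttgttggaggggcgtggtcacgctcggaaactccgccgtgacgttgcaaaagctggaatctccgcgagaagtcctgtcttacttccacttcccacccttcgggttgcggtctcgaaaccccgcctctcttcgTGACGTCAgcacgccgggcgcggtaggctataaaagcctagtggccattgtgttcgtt
PPP1R15B: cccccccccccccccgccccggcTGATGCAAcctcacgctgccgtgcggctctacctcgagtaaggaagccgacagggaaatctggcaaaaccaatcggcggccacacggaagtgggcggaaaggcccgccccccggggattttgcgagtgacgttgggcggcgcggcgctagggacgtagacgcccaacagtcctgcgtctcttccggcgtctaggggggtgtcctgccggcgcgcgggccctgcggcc
TGACGTCA lies 58 to 51 bases before the PPP1R15A start site, and 1.65% of 35116 promoter stretches of this length hold it. It contains the shorter ATF core TGACG, which 21.2% of the stretches hold and which the printed PPP1R15B stretch and stretches of ATF4 and ATF5 hold too. TGATGCAA lies 227 to 220 bases before the PPP1R15B start site, and 3.14% of the stretches hold TGATGNAA. Both strands were searched. The stretches of the other 4 genes hold neither of these longer motifs.

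ATF4 mRNA was far more abundant in these cells than the mRNAs of the other 5 genes. In WT Input, ENST00000396680 of ATF4 had 570 TPM ± 12.2 (SD, n = 3), above 99.6% of the tested transcripts. PPP1R15B followed at 18.0 ± 4.52, PPP1R15A at 15.3 ± 1.83, TRIB3 at 13.8 ± 6.78, ATF5 at 12.9 ± 3.91 and the sum of the listed DDIT3 identifiers at 9.86 ± 9.02 TPM. These 5 lay above 83.2% (DDIT3) to 89.8% (PPP1R15B) of the tested transcripts. Neighbours among these last 5 did not differ beyond their spread. ENST00000396680 held between 98.4% and 100% of the TPM of the listed ATF4 identifiers, so their sum behaved like this transcript, while ENST00000337304 and ENST00000404241 stayed below 6 TPM in every library. A sum here covers listed identifiers and is no gene total, and estimates for transcripts that share sequence can shift between identifiers.

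The libraries were not alike. Between 34899 and 38389 transcripts reached 1 TPM in WT Input, but between 18666 and 31380 did so in KO Input. The KO disome library of culture 1 reached 9867, with 70.5% of its TPM in 10 transcripts. WT 40S ranged from 8956 to 15949. The summed TPM of the ERCC spike-in RNAs lay between 33.4 and 166 in WT Input and between 306 and 1271 in KO Input. TPM keeps no read number, and sequencing depth is unknown. Equal amounts of RNA went into each library, so a value gives the composition of a fraction, and lower expression per cell cannot be told apart from fewer expressing cells. Each p-value measures only the spread among these samples.

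**Figure D1:**
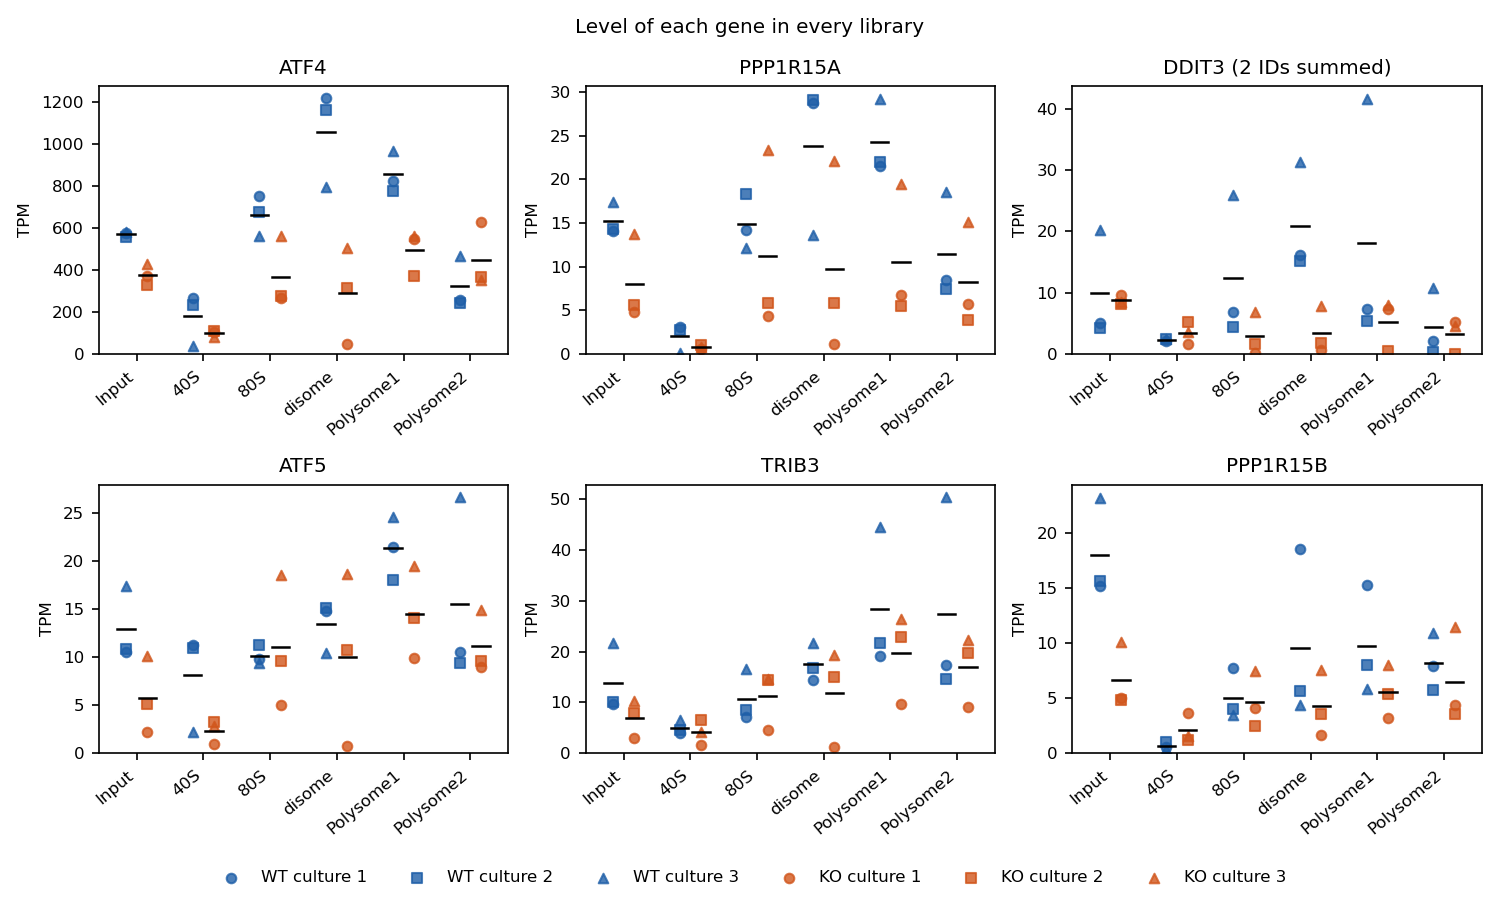
TPM (y axis, linear, a separate scale for each gene) of the 6 genes in the 6 kinds of sample (x axis), with a point for each library, shaped by culture number, in blue for WT and orange for KO, and a black bar for the mean of 3. ATF4 is ENST00000396680, and WT ATF4 peaks in the disome and Polysome1 samples and is low in Polysome2.

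Across the WT gradient, ATF4 was higher in Polysome1, the lighter polysome sample, than in Polysome2. ENST00000396680 had 266, 232 and 39.7 TPM in 40S (cultures 1, 2 and 3), 749.9, 676 and 563.2 in 80S. It had 1217, 1163 and 794 in disome. It then had 825, 774 and 965 in Polysome1, and 258, 242 and 469 in Polysome2, the heavier polysome sample. The highest gradient value was in disome in cultures 1 and 2 and in Polysome1 in culture 3. In all 3 cultures the Polysome2 value lay below those of 80S, disome and Polysome1. The size of the rise from 80S to disome depended on the scaling, with a WT mean difference of 0.66 on the log2(TPM + 1) scale. That difference was 0.01 with median-of-ratios scaling, 0.83 with quantile normalization and 1.26 with scaling to the ERCC spike-ins.

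PPP1R15A, whose product reverses eIF2 phosphorylation, followed a similar course at a far lower TPM. ENST00000200453 had 3.11, 2.78 and 0.16 TPM in WT 40S, 14.2, 18.3 and 12.15 in 80S. It had 28.8, 29.1 and 13.7 in disome. Polysome1 and Polysome2 differed, with 21.6, 22.0 and 29.25 TPM against 8.50, 7.47 and 18.5. Its highest values were in disome in cultures 1 and 2 and in Polysome1 in culture 3, as for ATF4. Over all 36 libraries the log2 values of the 2 transcripts had a Pearson r of 0.907 (Spearman 0.826), the highest r among the 15 pairs of genes. Over the 30 libraries outside 40S the r of this pair was 0.820 (Spearman 0.711), below the 0.902 (Spearman 0.732) of ATF5 and TRIB3. This is a description, since libraries of a culture and of a fraction share their source and depth.

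DDIT3 was also highest in disome or Polysome1. The sum of its identifiers was 16.2, 15.1 and 31.3 TPM in WT disome, 7.34, 5.41 and 41.6 in Polysome1, and 2.09, 0.391 and 10.8 in Polysome2. Culture 3 stood high, with 20.3 TPM in Input against 5.08 and 4.23 in the other 2.

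TRIB3 was higher in both polysome samples than in 80S in all 3 WT cultures. TRIB3 (ENST00000217233) had 7.08, 8.51 and 16.5 TPM in WT 80S, 19.1, 21.6 and 44.6 in Polysome1, and 17.3, 14.6 and 50.4 in Polysome2. ATF5 (ENST00000423777) had 9.74, 11.2 and 9.33 in 80S, 21.4, 18.0 and 24.5 in Polysome1, and 10.6, 9.38 and 26.6 in Polysome2. Both were highest in Polysome1 in WT cultures 1 and 2 and in Polysome2 in culture 3. The 2 genes had an r of 0.857 over the 36 libraries, of 0.659 (Spearman 0.540) over the 18 WT libraries and of 0.952 over the 18 KO libraries. Of all tested transcripts, 26.4% had their highest WT gradient mean in disome, 20.8% in Polysome1 and 36.6% in Polysome2.

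PPP1R15B, the constitutive subunit, had its highest WT mean in Input. ENST00000367188 had 15.2, 15.7 and 23.2 TPM in WT Input, 0.546, 0.995 and 0.359 in 40S, and 7.69, 3.99 and 3.43 in 80S. Disome held 18.6, 5.64 and 4.40 TPM and Polysome2 held 7.89, 5.74 and 10.9. Input lay above 40S, 80S and Polysome2 in every culture, and the cultures differed most in disome.

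WT fractions were compared with WT Input by limma on log2(TPM + 1), a scale on which the change of low transcripts is understated, with p-values adjusted over all 51052 transcripts. These comparisons share the 3 WT Input libraries. In 40S, 5 of the 9 transcripts were lower and none was higher at an adjusted p under 0.05, beside 43.2% of all tested transcripts, and the 9 had a median difference of -1.51 against -0.95 over all tested. The median over all tested was -1.72 among transcripts at 10 TPM or more in at least 3 libraries. It thus depends on the levels of the transcripts compared, as do the other medians over all tested. PPP1R15B fell by 3.54 (SE 0.55, limma adjusted p = 1.13e-05). PPP1R15A fell by 2.63 (SE 0.69, limma adjusted p = 0.00317). The remaining calls were the 3 ATF4 identifiers, with ENST00000396680 at -2.07 (SE 0.63, limma adjusted p = 0.0094), which turned to 0.56 with median-of-ratios scaling, and ENST00000404241 at -0.74 turned to 0.14 with quantile normalization. With either of these scalings PPP1R15B was the only transcript of the 9 called lower, and ATF5, at -0.81 without them, was called higher, at 1.56 with median-of-ratios (limma adjusted p = 0.0063) and 1.18 with quantile (0.0362). Without WT culture 3, whose 40S library had the fewest transcripts at 1 TPM, 2 of 9 passed, and ATF4 ENST00000396680 was at -1.18 (limma adjusted p = 0.255) and PPP1R15A at -1.95 (limma adjusted p = 0.106). The count over all tested was 12392 in that fit, against 22047 with all libraries. With each culture as a block, which pairs fractions of the same culture, TRIB3 (-1.25, limma adjusted p = 0.0050) and DDIT3 ENST00000346473 (-1.51, limma adjusted p = 0.0273) passed as well, though with median-of-ratios scaling, without the block, they turned to 1.14 and 0.55.

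Further down the gradient few of the transcripts differed from Input. In 80S, PPP1R15B was lower, at -1.70 (SE 0.55, limma adjusted p = 0.0246), as 1 of 9 beside 22.4% of all tested, and it was at -1.32 (limma adjusted p = 0.282) without WT culture 3 and at -1.67 (limma adjusted p = 0.158) without WT culture 2. In disome limma called 0 of 9, beside 14.8%, with 0 of 9 at an unadjusted p under 0.05 and a median of 0.40 against -0.11 over all tested. In Polysome1 it called 0 of 9, beside 12%, with 1 of 9 at an unadjusted p under 0.05 and a median of 0.58 against -0.05. In Polysome2 it called 1 of 9, beside 12.1%, with a median of -0.61 against -0.15. That 1 was the minor ATF4 identifier ENST00000337304, at 3.06 TPM ± 0.29 in Input and 0.626 ± 0.593 in Polysome2 (-1.38, SE 0.46, limma adjusted p = 0.0477; SD, n = 3). That value turned to 1.0 with scaling to the ERCC spike-ins.

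Heavy polysomes were then set against the lone ribosome within WT. Polysome2 against 80S gave 0 of 9 calls in limma, beside 13.1% of all tested, with 1 of 9 at an unadjusted p under 0.05 and a median of -0.36 against 0.23. TRIB3 was at 1.15 (SE 0.70, limma adjusted p = 0.269), and ATF4 ENST00000396680 at -1.09 (SE 0.63, limma adjusted p = 0.243). With each culture as a block, 3 of 9 passed, while the count over all tested rose from 6673 to 16407. They were TRIB3, higher at 1.15 (SE 0.36, limma adjusted p = 0.0177), DDIT3 ENST00000346473, lower at -1.51 (SE 0.57, limma adjusted p = 0.0450), and ATF4 ENST00000337304, lower at -1.23 (SE 0.38, limma adjusted p = 0.0153). With culture as a random block, which estimates that correlation, ENST00000337304 alone passed, and limma gave TRIB3 an adjusted p of 0.0557 and DDIT3 ENST00000346473 of 0.0710. TRIB3 was higher in Polysome2 than in 80S in 3 of 3 WT cultures and DDIT3 lower in 3 of 3. With scaling to the ERCC spike-ins, which moved the median of all tested to 2.15, DDIT3 ENST00000346473 turned to 0.13 and ATF4 ENST00000396680 to 1.15.

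The genes differed in the ratio of Polysome2 to Polysome1 within a culture, which compares heavy with lighter polysomes. In WT it was 0.313, 0.313 and 0.486 for ATF4, 0.394, 0.339 and 0.633 for PPP1R15A, and 0.285, 0.0723 and 0.259 for DDIT3. For TRIB3 it was 0.906, 0.675 and 1.13, for ATF5 0.493, 0.522 and 1.09, and for PPP1R15B 0.515, 0.714 and 1.87. The genes did not separate cleanly: ATF5 in cultures 1 and 2 and PPP1R15B in culture 1 lay below the 0.633 of PPP1R15A in culture 3. On the log2(TPM + 1) scale, the ATF4 ratio in the 3 WT cultures lay above 5.85%, 6.06% and 9.57% of tested transcripts. That of PPP1R15A lay above 11.4%, 8.54% and 18.4%, and that of DDIT3 above 8.64%, 2.81% and 2.21%. That of ATF5 lay above 17.5%, 18.7% and 56.0%, that of PPP1R15B above 19.4%, 31.9% and 86.0%, and that of TRIB3 above 46.0%, 28.2% and 59.1%. The WT means for ATF4, PPP1R15A and DDIT3 were below 0 under TPM, median-of-ratios, quantile and ERCC scaling, from -0.96 to -1.74 for ATF4, from -0.68 to -1.14 for PPP1R15A and from -1.63 to -1.91 for DDIT3. Those of ATF5 were below 0 too, from -0.10 to -0.62.

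In KO the log2 ratios of ATF4, PPP1R15A and DDIT3 were nearer to 0 than in any WT culture. The KO ratio was 1.14, 0.982 and 0.625 for ATF4 and 0.862, 0.721 and 0.774 for PPP1R15A. For DDIT3, KO culture 2 was listed at 0 in Polysome2, and the other 2 cultures had 0.698 and 0.573, at levels where the added 1 TPM sets much of the log2 ratio. The KO log2 ratio lay above 74.8%, 42.9% and 13.7% of tested transcripts for ATF4, above 20.6%, 19.6% and 24.2% for PPP1R15A, and above 10.7%, 12.7% and 13.5% for DDIT3, so the last 2 genes remained low among all transcripts in KO too. On the log2(TPM + 1) scale no KO culture overlapped a WT culture for these 3 genes. For DDIT3 that rested on the added 1 TPM, since the plain ratio of KO culture 2, at 0, lay below every WT ratio. How many of all tested transcripts lay apart in these ratios was not counted, so non-overlap does not set these genes apart from the rest. For PPP1R15A, a log2 ratio of -0.19 in KO culture 1 lay above 20.6% of tested transcripts. Its ratio of -0.63 in WT culture 3 held a similar rank, above 18.4%. KO exceeded WT by 1.29 for ATF4, by 1.26 for DDIT3 and by 0.80 for PPP1R15A on the log2 scale, each with a two-sided exact permutation p of 0.1, the smallest that 3 against 3 can give. Over the 18 ratio tests, for 6 genes and 3 pairs of fractions, the adjusted p was 0.327, so none passed. Polysome2 over Polysome1 and disome over 80S were picked after the levels were seen, a choice that the adjustment does not cover. With ERCC scaling the KO excess was 0.22 for ATF4 and 0.10 for PPP1R15A. For ATF5, TRIB3 and PPP1R15B the cultures overlapped, with exact permutation p-values of 0.6, 1.0 and 0.8 (KO minus WT of 0.24, -0.01 and 0.27). In disome over 80S, ATF4 was lower in every KO culture than in any WT culture, with a difference of -1.47 (exact permutation p = 0.1). That difference was -0.43 with median-of-ratios scaling, -0.95 with quantile normalization and -0.92 with ERCC scaling.

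**Figure D2:**
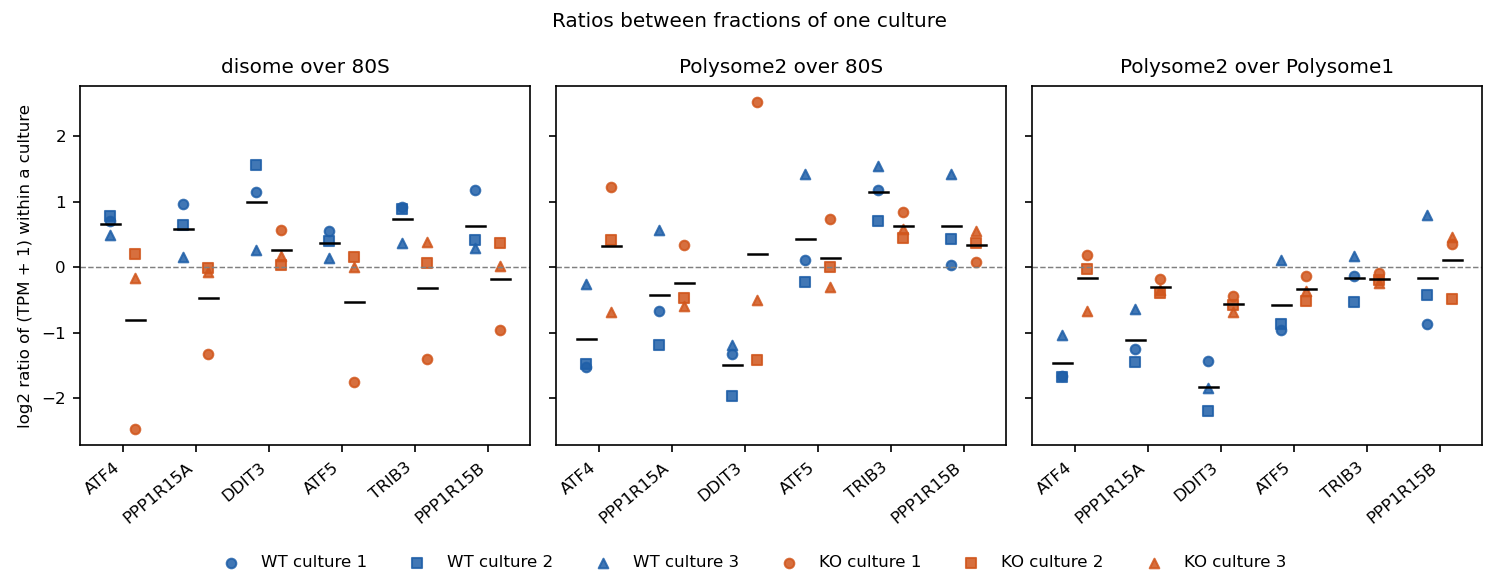
Log2 ratio of TPM + 1 between fractions of the same culture (y axis) for 6 genes (x axis), as disome over 80S, Polysome2 over 80S and Polysome2 over Polysome1, with a point per culture, in blue for WT and orange for KO, and a black bar for the mean of 3. In the right panel ATF4, PPP1R15A and DDIT3 lie lower in all 3 WT cultures than in any KO culture, while TRIB3, ATF5 and PPP1R15B overlap. How many of all tested transcripts lie apart in this way was not counted.

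For Polysome2 against 80S, KO gave 0 of 9 calls in limma, beside 1.45% of all tested, with 0 of 9 at an unadjusted p under 0.05 and a median of 0.14, equal to that of all tested. The difference between genotypes in this contrast was tested as an interaction term. It gave 0 of 9 calls, beside 0.0901%, with 0 of 9 at an unadjusted p under 0.05 and a median of 0.19 against -0.06. For ATF4 ENST00000396680 the interaction was 1.41 (SE 0.90, limma adjusted p = 0.684). TRIB3 was higher in Polysome2 than in 80S in 3 of 3 KO cultures too, with ratios of 1.98, 1.38 and 1.53.

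KO was compared with WT in each sample to ask how loss of RBPMS relates to the level of these mRNAs. These comparisons take their libraries from the same 6 cultures, and the 24 residual degrees of freedom of the fit overstate the replication that 3 cultures against 3 provide. In Input, 8 of 9 transcripts were on the lower side in KO, with a median of -0.78, where all tested transcripts had a median of -0.51. That median was -0.64 among transcripts at 10 TPM or more in at least 3 libraries. The 8 include ATF4 ENST00000337304 at -0.008, with a mean of 3.13 TPM in KO and 3.06 in WT. The share of all tested transcripts on the lower side was not counted, here or in the fractions. ATF4 ENST00000396680 had 371, 330.1 and 429 TPM in KO Input against 575, 557 and 579.9 in WT. PPP1R15A had 4.82, 5.59 and 13.7 against 14.1, 14.3 and 17.4. PPP1R15B had 5.02, 4.83 and 10.1 against 15.2, 15.7 and 23.2. The groups did not overlap for these 3 genes, and KO culture 3 was nearest to WT in each. ATF5 did not overlap either, at 2.17, 5.05 and 10.1 in KO against 10.5, 10.9 and 17.4 TPM in WT, while TRIB3 and the DDIT3 sum overlapped. How many of all tested transcripts lay apart in this way was not counted, here or in the fractions. Non-overlap thus describes these transcripts and does not set them apart from the rest.

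Limma called 1 of these 9 in Input, beside 20.0% of all tested, with 2 of 9 at an unadjusted p under 0.05. The call was the minor ATF4 identifier ENST00000404241, at 0.115 TPM ± 0.137 in KO and 0.943 ± 0.449 in WT (-0.78, SE 0.27, limma adjusted p = 0.0399; SD, n = 3). This transcript reached 1 TPM in WT libraries only, and its highest KO value in any sample was 0.375 TPM. It thus passed the filter only through the genotype where it was higher, and the call is no independent support for a fall in KO. The call was lost without KO culture 1 (limma adjusted p = 0.213), KO culture 2 (0.204), WT culture 1 (0.166) or WT culture 3 (0.0522). It was also lost with culture as a random block (limma adjusted p = 0.0635), a pseudocount of 0.1 TPM (0.0618), median-of-ratios (0.113), quantile normalization (0.486), ERCC scaling (0.266) and a fit to the Input libraries alone (0.126). PPP1R15B was at -1.36 (SE 0.55, limma adjusted p = 0.0763) and PPP1R15A at -0.97 (SE 0.69, limma adjusted p = 0.328). ATF4 ENST00000396680 was at -0.61 (SE 0.63, limma adjusted p = 0.517), a difference above 45.95% of those of all tested transcripts. ATF5 was at -1.185 (SE 0.67, limma adjusted p = 0.211). Without KO culture 3, whose Input library had the most transcripts at 1 TPM in KO, 4 of 9 were called, all lower: this ATF4 identifier, ATF5, PPP1R15A and PPP1R15B. That fit called 22990 of the 51052 tested transcripts, 19382 of them lower.

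The lowest of the 6 medians was in disome, where all 9 transcripts were on the lower side in KO, with a median of -1.06 against -0.45 over all tested, though with quantile normalization ATF4 ENST00000337304 turned to 0.59 and PPP1R15B to 0.01. Among transcripts at 10 TPM or more in at least 3 libraries, the median of all tested was -0.94. ATF5 (-0.94), PPP1R15B (-0.93) and TRIB3 (-1.06) lay near that value. ATF4 ENST00000396680, DDIT3 ENST00000346473 and PPP1R15A lay further below it. ATF4 ENST00000396680 had 47.5, 313 and 504 TPM in KO and 1217, 1163 and 794 in WT, and the groups did not overlap. It fell by 2.40 (SE 0.63, limma adjusted p = 0.0400), the only call among 9, beside 2.78% of all tested, with 4 of 9 at an unadjusted p under 0.05. The summed ATF4 identifiers gave -2.39 (limma adjusted p = 0.0403). Without the KO disome library of culture 1, described above, the difference was -1.39 (SE 0.54, limma adjusted p = 0.329), and ATF4 stayed lower in each remaining KO culture than in any WT culture. The call was also lost without KO culture 2 (limma adjusted p = 0.145), WT culture 1 (0.262) or WT culture 2 (0.215), and in a fit to the 6 disome libraries alone (0.540), as well as with median-of-ratios scaling (-1.33, 0.141), a pseudocount of 0.1 TPM (0.0784) and no filter (0.0563).

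DDIT3 ENST00000346473 had 0, 1.74 and 7.80 TPM in KO disome and 15.1, 14.0 and 20.1 in WT, with no overlap (-2.57, SE 0.88, limma adjusted p = 0.0925). PPP1R15A had 1.13, 5.79 and 22.1 TPM in KO disome and 28.8, 29.1 and 13.7 in WT, so KO culture 3 exceeded WT culture 3 (-1.77, SE 0.69, limma adjusted p = 0.138). TRIB3 had 1.09, 15.0 and 19.3 against 14.3, 16.7 and 21.7, a range in which KO cultures 2 and 3 overlapped WT. Without KO culture 3, limma called 4 of 9 in disome, all lower: 2 ATF4 identifiers, DDIT3 ENST00000346473 and PPP1R15A. That fit called 15382 of the 51052 tested transcripts in disome, 14417 of them lower. KO culture 1 was lowest for each of ATF4, ATF5, DDIT3, PPP1R15A, PPP1R15B and TRIB3 in disome. The part of library quality in these differences was not tested.

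**Figure D3:**
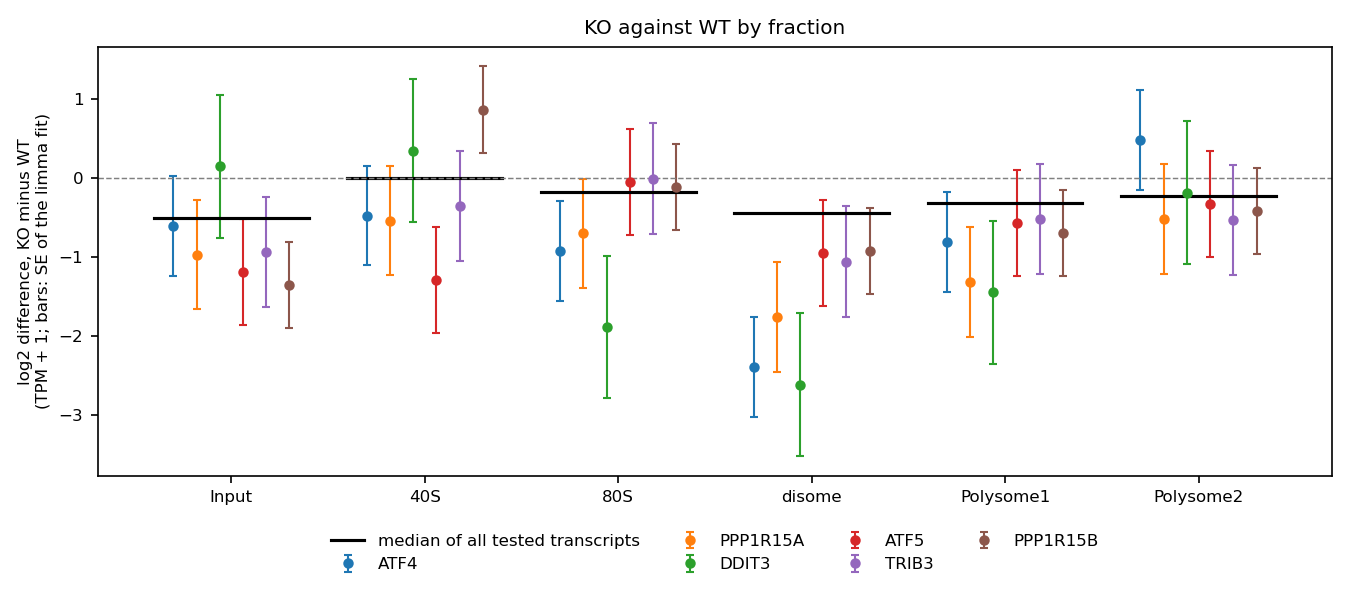
Difference KO minus WT in log2(TPM + 1) (y axis, points with the SE of the limma fit) for 6 genes, in each kind of sample (x axis), with black bars for the median of all 51052 tested transcripts. ATF4 is ENST00000396680 and DDIT3 is the sum of 2 identifiers. In disome all 6 points lie below 0 and below the median bar (with quantile normalization PPP1R15B was at 0.01). The bars include low transcripts, whose change is understated. Among transcripts at 10 TPM or more in at least 3 libraries the disome median was -0.94, near ATF5, PPP1R15B and TRIB3.

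In the other fractions none of the 9 passed. Limma called 0 of 9 in 40S, beside 0.0235% of all tested (0 of 9 at an unadjusted p under 0.05, median -0.36 against 0.00), and 0 of 9 in 80S, beside 0.599% (0 of 9, median -0.70 against -0.17). It called 0 of 9 in Polysome1, beside 5.42% (1 of 9 at an unadjusted p under 0.05, median -0.69 against -0.32), and 0 of 9 in Polysome2, beside 5.52% (0 of 9, median -0.33 against -0.22). ATF5 in 40S had 0.967, 3.17 and 2.85 TPM in KO and 11.2, 10.9 and 2.20 in WT. That difference was -1.29 (SE 0.67, limma adjusted p = 0.936), and ATF5 was the member called there with median-of-ratios scaling (-2.14) and with quantile normalization (-1.72). PPP1R15B in 40S went the other way, with 3.68, 1.15 and 1.53 TPM in KO above the 0.546, 0.995 and 0.359 of WT without overlap (0.87, SE 0.55, limma adjusted p = 1.0, and -0.16 with ERCC scaling).

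ATF4 in Polysome1 had 549, 372 and 559.7 TPM in KO, below the 825, 774 and 965 of WT without overlap (-0.81, SE 0.63, limma adjusted p = 0.399). In Polysome2 it had 626, 365 and 350.1 in KO against 258, 242 and 469 in WT, where the groups overlapped (0.48, SE 0.63, limma adjusted p = 0.667). PPP1R15A in Polysome1 had 6.70, 5.45 and 19.5 in KO against 21.6, 22.0 and 29.25 in WT, again without overlap (-1.32, SE 0.69, limma adjusted p = 0.210). It was called there without KO culture 3 (-1.83, limma adjusted p = 0.0116), in a fit that called 18612 of the 51052 tested transcripts.

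**Figure D4:**
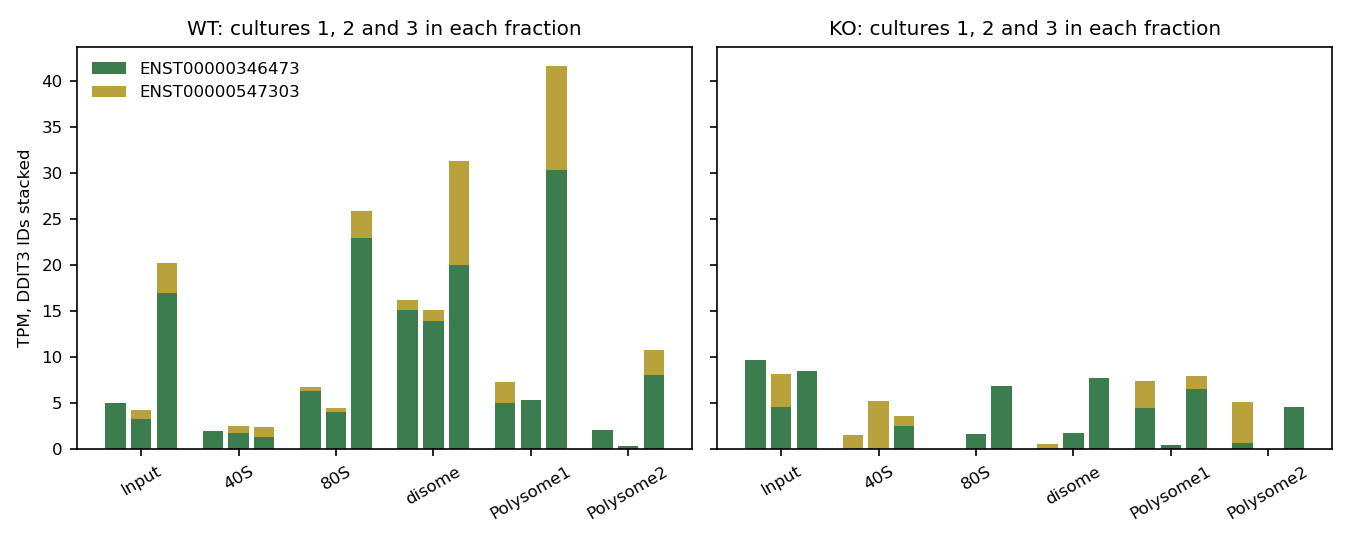
TPM (y axis) of the DDIT3 identifiers ENST00000346473 (green) and ENST00000547303 (yellow), stacked, in every WT (left) and KO (right) library, with cultures 1, 2 and 3 side by side in each kind of sample (x axis). ENST00000346473 holds most of the sum in most libraries, and WT culture 3 has the tallest bars, up to 41.6 TPM.

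The DDIT3 identifiers did not keep a fixed share. ENST00000346473 held between 0% and 100% of their sum (median 89.9%, over the 35 libraries with a sum above 0). In KO 40S, ENST00000346473 was listed at 0 in cultures 1 and 2, where ENST00000547303 had 1.57 and 5.24 TPM. In KO 80S, ENST00000547303 was listed at 0 in all 3 cultures. The sum was 2.87 TPM ± 3.53 in KO 80S and 12.4 ± 11.8 in WT 80S (SD, n = 3; -1.89, SE 0.91, limma adjusted p = 0.289).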

How the data were processed

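The deposited table held TPM values, which the authors made from paired reads of 75 nt of stranded poly(A) libraries, per the labels' protocols. The submitters' processing notes name kallisto, sleuth and hg19, with versions and annotation not given in the sources used here. No column was unused. Depth is not kept in TPM, so no counting interval is given, and a listed 0 is an estimate, not a count. The table given for naming held 59792 genes, 0 of them with an Ensembl ID, so other genes of the pathway and marker genes were not analysed here. The rule reads identifiers only, but the genes and lists were chosen with earlier results of these data known.

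Groups came from the sample descriptions, where a genotype and a number name each culture. The description of KO replicate 3 reads Input2 for its Input. The 51052 transcripts at 1 TPM or more in 3 or more libraries were kept, and log2(TPM + 1) was fitted with 12 group means over 36 libraries in limma 3.58.1 (R 4.3.3, variance trend, 24 residual degrees of freedom). P-values were adjusted by Benjamini-Hochberg over all tested transcripts in each of 14 comparisons, at 0.05. The script was tested on simulated data. The listed identifiers of ATF4 and of DDIT3 were also summed. All 9 members and these sums are named, by rule. Ratios within a culture were compared by two-sided exact permutation in scipy 1.17.1. Polysome2 over Polysome1 and disome over 80S were chosen after the levels were seen. Libraries of the same culture pair the fractions: their deviations from group means had a median correlation of 0.34 (68 of 90 pairs over 0.1). Alternatives were another pseudocount, other filters, other scalings, culture or replicate number as a block, and libraries left out.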

Additional observations from a re-analysis of the deposited data

Results flagged for a closer look

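For PPP1R15A the log2 ratio of disome to 80S, on TPM + 1, was above 0 in all 3 WT cultures (0.97, 0.64 and 0.16) and below 0 in all 3 KO cultures (-1.34, -0.01 and -0.08), so the genotypes lay on opposite sides of no change. How many of all tested transcripts did so was not counted. The KO mean minus the WT mean was -1.06, and the two-sided exact permutation p was 0.1, the smallest that 3 against 3 can give (adjusted over 18 ratio tests, 0.327). This ratio was picked after the levels were seen, a choice that the adjustment does not cover. KO cultures 2 and 3 were within 0.1 of 0, and most of the KO mean came from culture 1, whose disome library had 9867 transcripts at 1 TPM. With median-of-ratios scaling the WT mean was -0.03 and KO minus WT was -0.23. KO minus WT was -0.36 with quantile normalization and -0.85 with ERCC scaling, where the KO mean was 0.36. The part of the KO disome library of culture 1 in the difference was not tested.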

How the results depend on the processing

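Counts are of 9 members called (6 tested with the filter at 10 TPM), and the cause of a change was not tested. For KO against WT in Input, 0 were called with a pseudocount of 0.1 TPM, the 10 TPM filter, median-of-ratios scaling, quantile normalization, only the libraries compared, culture as a random block, or KO replicates 1 and 2 left out together, and 2 with ERCC scaling. In disome, 0 were called with the 0.1 pseudocount, no filter, median-of-ratios scaling, only the libraries compared, KO replicates 1 and 2 left out together, or KO disome library 1 left out (chosen after its values were seen), 2 with the replicate block by number or culture as a random block, and 8 with ERCC scaling. ERCC scaling also gave 4 in 80S, 9 in Polysome1 and 8 in Polysome2, all lower, where it moved the median of all tested by -1.44, -3.01 and -3.41. In 40S, 1 was called with median-of-ratios or quantile. For WT 40S against Input, 3 were called with the 10 TPM filter or ERCC scaling, and 2 (1 higher) with median-of-ratios or quantile. For WT 80S against Input, 0 were called with the 0.1 pseudocount, median-of-ratios or ERCC. For WT Polysome2 against Input, 0 were called with the 0.1 pseudocount, 10 TPM filter or median-of-ratios, and 5 (higher) with ERCC, which gave 1 for disome and 6 for Polysome1. For WT Polysome1 against Input, 1 was called with only the libraries compared or KO replicates 1 and 2 left out. For WT Polysome2 against 80S, 2 were called with median-of-ratios or quantile, 3 with ERCC, 3 with culture as a replicate block, and 1 with culture as a random block or KO replicates 1 and 2 left out. Reversed values were 0.56 for ATF4 ENST00000396680 and 0.55 for the ATF4 sum (WT 40S against Input, median-of-ratios), 0.14 for ENST00000404241 (same contrast, quantile) and 1.0 for ENST00000337304 (WT Polysome2 against Input, ERCC). Leaving out each replicate in turn gave from 0 to 4 calls for KO against WT in Input and disome, 0 to 2 in 80S and 0 to 1 in Polysome1, and for WT against Input 2 to 6 in 40S and 0 to 1 in 80S, Polysome1 and Polysome2, with 0 to 1 for WT Polysome2 against 80S. Replicate numbers did not pair KO with WT (median correlation -0.12, 1 of 18 pairs over 0.1), and under that block DDIT3 ENST00000346473 in disome was at -2.57 (limma adjusted p = 0.0140) and the DDIT3 sum at -2.62 (0.0250). The blocks changed no other call than those given here and beside the results. The levels of DDIT3 and of the minor ATF4 identifiers were too low for their zeros to be read, with depth unknown.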
